A study of Rattus norvegicus with 12 samples.

Results

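A set of 10 genes of heart muscle was followed in rat lung RNA sequencing, out of 19687 genes listed for the series. They were Myh6, Actc1, Tnnt2, Tnni3, Myl7, Myl4, Nppa, Ryr2, Mybpc3 and Pln. These 10 genes were picked by name, as genes that heart muscle cells in the walls of the large pulmonary veins are known to use, and all 10 were found in at least 1 of the 3 deposited tables. The study compared ligands of the angiotensin II type 1 receptor in monocrotaline (MCT) rats, in which a plant toxin injures the lung vessels and pulmonary hypertension follows. Lungs of 3 rats per group had been sequenced, 12 libraries in all, and each rat gave its own library. The AngII group (libraries Ang2_922, Ang2_931 and Ang2_933) received the natural agonist at 1 mg/kg/day, and the TRV023 group (libraries Trv_917, Trv_918 and Trv_930) an agonist biased toward β-arrestin at 10 µg/kg/min. The losartan group (libraries Los_925, Los_964 and Los_965) received an antagonist at 10 mg/kg/day, and the vehicle group (libraries Veh_923, Veh_924 and Veh_963) PBS. All 12 rats, vehicle included, carried the MCT lesion (60 mg/kg) and were labelled as 9 weeks old, and the drugs came from implanted minipumps. The samples were small pieces of whole lung, no healthy lung was in the series, and the part of the lung that each piece came from is not stated. The question asked of the 10 genes was how much their amount differed between libraries and between treatments.

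Library totals were 16106337 to 20096877 counted reads, with a median of 19026690, and mitochondrial genes took 4.36% to 12.3% of them. Among 13790 genes with a mean of at least 1 FPKM (reads scaled to gene length and to the library total), 6 were at least 4 times as high in the library Veh_963 as in any other, and Actc1 was one of the 6. Other libraries had 0 to 7 such genes, so by this count Veh_963 was not apart from the rest. It held the highest level of Actc1 and the highest sum of smooth muscle genes, and results that rest on it are given with and without it.

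Muscle from the left atrium runs out along the pulmonary veins as a sleeve around the vessel, and in rodents it reaches far into the lung. A cardiac muscle cell contracts when calcium leaves its internal store through the ryanodine receptor Ryr2 and binds the troponin complex on the thin filament, which lets the myosin heads pull on actin. Phospholamban (Pln) holds back the pump Atp2a2 that refills the store, and atrial cells in addition release the natriuretic peptide made from Nppa.

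Of the 10 genes, 5 were at or near 0 in all 12 libraries. Myh6, the myosin heavy chain of the atrium and of the rodent ventricle, had 1 read in Ang2_922, 10 reads in Trv_917, 6 reads in Los_925 and 0 reads in the other 9 libraries. Nppa had 9 reads in Trv_917 and 0 in the other TRV023 rats, and in the losartan rats it had 0, 10 and 2 reads. It had 0 reads in all 3 vehicle rats and was not listed in the AngII table. Myl7, the regulatory light chain of atrial myosin, had 3 reads in Ang2_931, 2 reads in Trv_918, and 2, 3 and 5 reads in the vehicle rats, and the losartan table did not list it. A count of 0 at these depths allows a level of up to 0.149 to 0.186 RPM (the usual read unit scaled to the library total; 3 reads of that total, for counting error only).

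Ryr2, the calcium release channel, had 9, 12 and 9 reads in the AngII rats, 7, 12 and 17 in the TRV023 rats, 25, 0 and 15 in the losartan rats, and 22, 22 and 35 in the vehicle rats, and its level never passed 0.118 FPKM. Mybpc3, the myosin-binding protein C of heart thick filaments, had 12, 12 and 23 reads in the AngII rats, 2, 15 and 0 in the TRV023 rats, 11, 6 and 11 in the losartan rats, and 10, 5 and 5 in the vehicle rats, at no more than 0.320 FPKM. These 5 genes together had 16 to 45 reads per library, and 21 of their 54 listed values were 0. The label of pulmonary vein muscle was therefore not borne out by these 5 genes at this depth, though the other 5 were detected. The set is called by its rule, as genes of heart muscle.

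The other 5 genes, Actc1, Pln, Tnnt2, Tnni3 and Myl4, were above 0 in 60 of 60 values, with 10 to 8472 reads. The division into 5 and 5 was made after the values were seen. Thin filament genes (Actc1, Tnnt2, Tnni3) were all on the detected side and thick filament genes (Myh6, Myl7, Mybpc3) on the other, except that Myl4, the atrial essential light chain, was detected. Of the calcium genes, Pln was detected and Ryr2 was near 0. In bulk tissue, fewer cells of a type and less RNA per cell cannot be told apart.

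**Figure D1:**
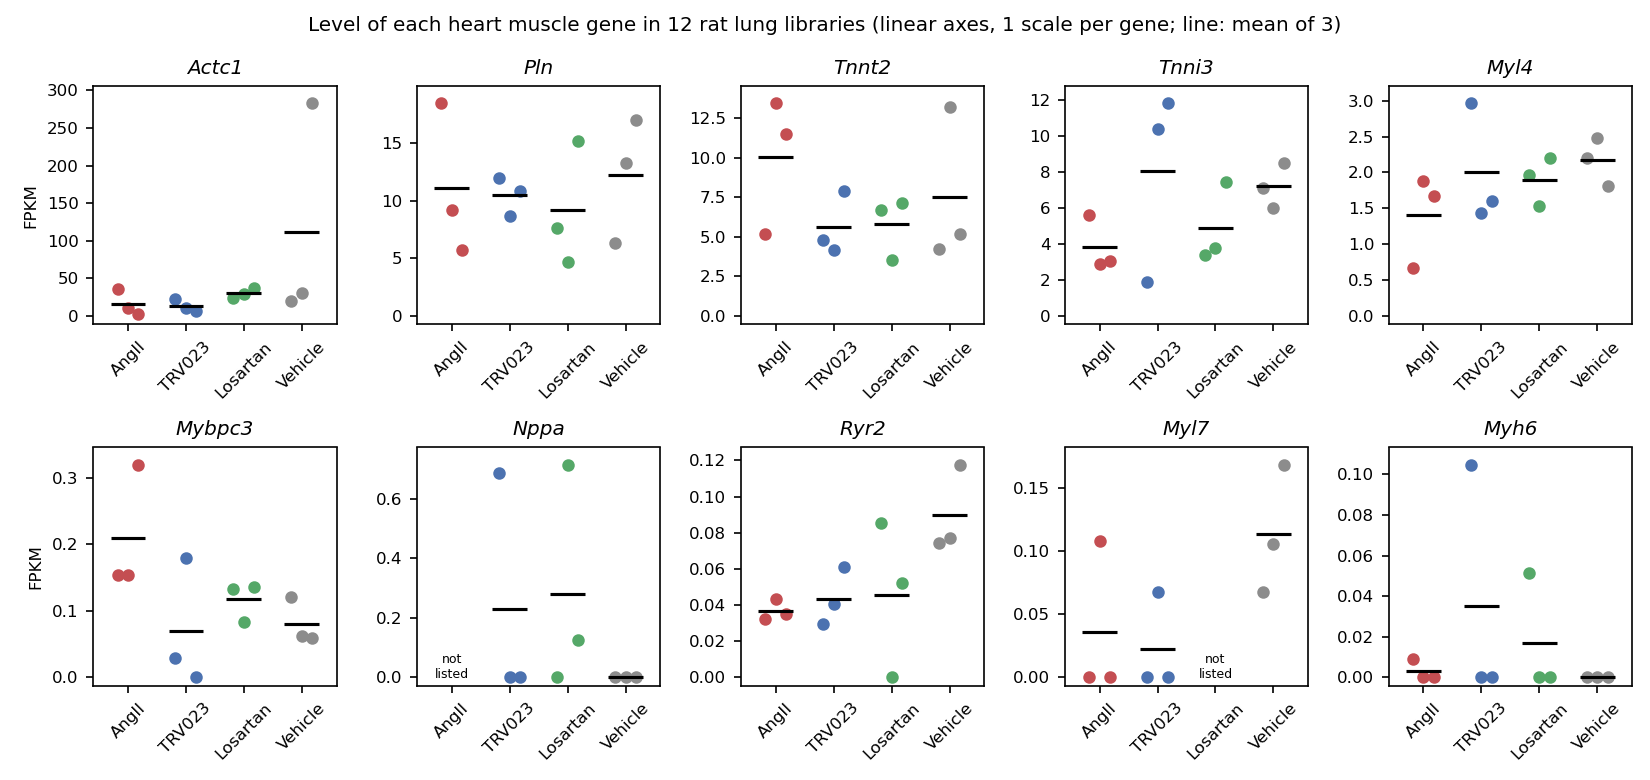
FPKM of each of the 10 genes (vertical axes, linear, a separate scale per gene) in the 3 libraries of each group (horizontal axes), with a line at the group mean. In the Actc1 panel Veh_963 stands alone at 283 FPKM, and the panels of the lower row, from Mybpc3 to Myh6, reach no more than 0.715 FPKM.

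Stretches of the genes' own promoters are shown because they carry short motifs that heart muscle genes are known for, and because such motifs were found on both sides of the split. They come from RefSeq windows on the rat assembly GRCr8, from 250 bases before to 50 bases after the start of transcription, which matched 10 of 10 genes with 11 windows (Tnnt2 has 2). All stretches are 30 bases, written 5′ to 3′ along the gene, with the motif in capitals. The motif is the CArG box (bound by serum response factor) for Actc1, the MEF2 site for Mybpc3, CATTCC (the MCAT element, bound by TEAD factors) for Tnnt2 and Myh6, and TGATAA or AGATAA (letters that GATA factors bind) for Tnni3, Pln and Nppa, where Tnni3 has AGATAA on the other strand. They lie at chr3:121271806-121271835 on the minus strand (Actc1), chr3:97550942-97550971 on the plus strand (Mybpc3), chr13:49819028-49819057 on the plus strand (Tnnt2), chr15:32411703-32411732 on the minus strand (Myh6), chr1:78342537-78342566 on the plus strand (Tnni3), chr20:33172366-33172395 on the plus strand (Pln) and chr5:163712040-163712069 on the plus strand (Nppa).
Actc1: gctaaggcgaCCAAATAAGGcaaggtggca
Tnnt2: tctcctgctgcaCATTCCtcccaccgtggg
Tnni3: tgtcctcgccccTTATCTcagtgtcctcag
Pln: taaggtttgctgTGATAAgagcatggctaa
Mybpc3: tggaatttgtCTATATTTAGcaggtggcta
Myh6: tctgtggtgcctCATTCCagccgtggtcca
Nppa: gcttcgctggacTGATAActttaaaagggc

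Searched on both strands, a CArG box was in 1.64% of all 33469 windows and, of the 10 genes, in that of Actc1 alone, at bases 3 to 12 after the start. A MEF2 site was in 3.29% of windows and in that of Mybpc3. CATTCC was in 14.2% of windows and in those of Tnnt2 and Myh6, and TGATAA or AGATAA was in 18.9% of windows and in those of Mybpc3, Nppa, Pln, Tnni3 and Tnnt2. TATAAA was in 14.2% of windows and in those of Myl4 and Nppa. At least 1 of the 5 motifs was in 40.8% of all windows, in those of the 5 detected genes (for Myl4 only TATAAA) and in those of 3 of the 5 near 0, and Ryr2 and Myl7 had none. With TATAAA left out the share was 33.1% of all windows, and 7 of the 10 genes had a match. A match is a description of the window and not evidence that a factor was bound.

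Actc1, the α-actin of heart muscle thin filaments, varied most. Its level was 35.5, 10.6 and 2.92 FPKM in the AngII rats, 22.3, 10.7 and 6.69 FPKM in the TRV023 rats, 23.9, 29.02 and 37.2 FPKM in the losartan rats, and 19.9, 31.1 and 283 FPKM in the vehicle rats. Vehicle Veh_963 was 7.62 times the next library and 97.0 times the lowest, Ang2_933. The group means were 16.4 ± 17.0 FPKM with AngII, 13.2 ± 8.11 with TRV023, 30.02 ± 6.72 with losartan and 111 ± 149 with vehicle (SD, n = 3 each). Each drug group overlapped the vehicle group, because Veh_923, at 19.9 FPKM, lay below at least 1 rat of each. The gene lies at 3:112080853-112086389 on the minus strand in the coordinates of the deposited tables, whose build is not given in the sources used here.

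Across the 12 libraries Actc1 was close to several genes of smooth muscle, the contractile cells of vessel and airway walls, though less so without Veh_963. Genes with the closest pattern among 14288 were Lmod1, an actin nucleator of smooth muscle (Pearson r = 0.93 and Spearman rho = 0.94 on log2 CPM, n = 12 libraries), Chrdl1 (r = 0.92), Myh11, the smooth muscle myosin heavy chain (r = 0.91, rho = 0.86), and the tropomyosin gene Tpm1 (r = 0.90). These pairs, and the pairs given for the other genes, were chosen after their values were seen. Their values share the library, the group and the piece of lung, so each r is a description with no test. Without Veh_963 the r was 0.84 for Lmod1 and 0.79 for Myh11, and without the 2 libraries farthest from the median of Actc1 (Veh_963 and Ang2_933) it was 0.75 and 0.65. Without Veh_963 Lmod1 was the 10th closest gene and Myh11 the 28th. Over the 10 listed smooth muscle genes the r with Actc1 ran from -0.30 (Ckb) to 0.93 with a median of 0.83, and the median was 0.58 without Veh_963 and 0.41 without the 2 farthest. Smtn, a protein of the smooth muscle contractile filaments, had 0.32, and -0.04 without Veh_963. The r of Actc1 with the summed smooth muscle genes was 0.84, then 0.59 without Veh_963 and 0.40 without the 2 farthest. With the summed ventricular genes it was 0.68, 0.84 and 0.83 in the same order. That sum (mean 7.63 FPKM) was mostly Hey2 (4.08) and Kcnj2 (3.07), and the other 5 of its 7 genes were below 1 FPKM in all libraries.

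Myh11 had 79.7, 58.3 and 40.1 FPKM in the AngII rats, 80.04, 67.9 and 54.1 in the TRV023 rats, 59.9, 82.4 and 109.7 in the losartan rats, and 49.0, 70.0 and 228 in the vehicle rats. The same 2 libraries were thus the highest and the lowest for both genes. The amounts did not keep a fixed proportion, since the ratio of Actc1 to Myh11 was 0.0729 in Ang2_933 and 1.24 in Veh_963, a 17.0-fold range. Of a list of 11 smooth muscle genes, 10 were listed, none was below 1 FPKM in all libraries, and Acta2 was in no table. Their summed level was 906 to 1328 FPKM in the AngII rats, 989 to 1474 in the TRV023 rats, 1025 to 1524 in the losartan rats, and 939, 1288 and 2965 FPKM in the vehicle rats, the last being Veh_963. The part of smooth muscle in the Actc1 level was not tested.

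Vehicle Veh_963 was the highest library for some heart muscle genes and not for others. Of the 8 genes of the set listed in all tables, 2 were highest in it, Actc1 and Ryr2. Its level of the other 9 genes summed was 32.9 FPKM, against 20.2 and 35.3 FPKM in Veh_923 and Veh_924. Myh6 and Nppa had 0 reads in it, and the 5 genes near 0 had 45 reads in all, the most of any library, at 2.24 RPM (Wilson 95% interval 1.67 to 2.998). Further sarcomere genes summed to 42.8 FPKM in it and to 16.1 to 32.1 FPKM in the other 11, led by Hspb7 at 28.7 FPKM, and calcium handling genes to 103 FPKM, against 67.5 to 101 FPKM. Atp2a2 made up 59.1 FPKM of that calcium sum and was not highest in Veh_963, with 68.7 FPKM in Trv_917. The ventricular genes, at 8.60 FPKM, were the 5th highest of the 12. The calcium store protein Casq2, which cardiac muscle is known for, was at 6.59 FPKM in this rat and at 0.514 to 1.30 FPKM in the other 11. The cartilage protein Comp was at 8.38 FPKM in it and at 0.625 to 1.51 FPKM elsewhere, and the skeletal muscle actin Acta1 reached 22.3 FPKM, its highest level.

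**Figure D2:**
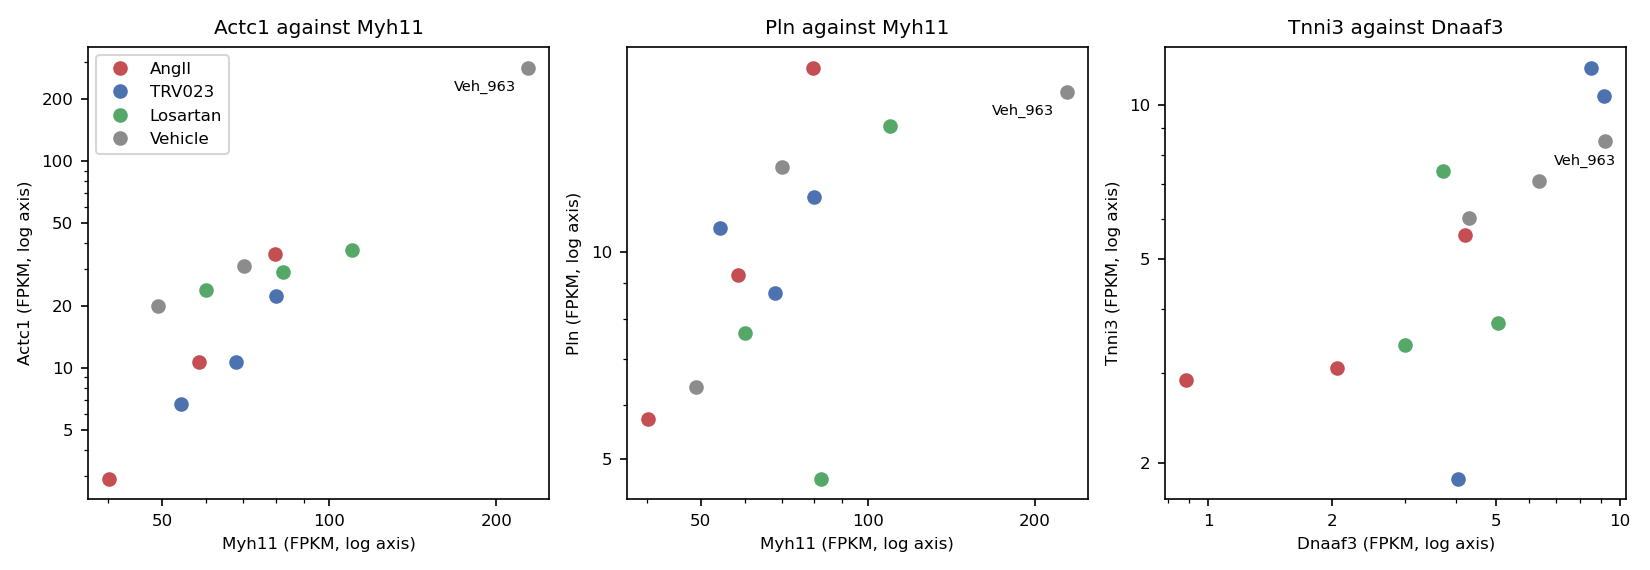
Actc1 against Myh11, Pln against Myh11 and Tnni3 against Dnaaf3, in FPKM on log axes, with 1 point per library (n = 12) coloured by group. Vehicle Veh_963 is at the upper right of the first panel at 283 FPKM of Actc1 and 228 FPKM of Myh11, and in the third panel Trv_917 lies below the other points at 1.87 FPKM of Tnni3.

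Pln was measured at 18.5, 9.25 and 5.73 FPKM in the AngII rats, 12.02, 8.73 and 10.8 in the TRV023 rats, 7.64, 4.69 and 15.2 in the losartan rats, and 6.36, 13.3 and 17.1 in the vehicle rats. The range was 3.95-fold, all 4 groups overlapped, and the highest library was Ang2_922 rather than Veh_963. Pln is also known from smooth muscle, where it acts on the same pump, and its r with Myh11 was 0.62 (rho = 0.55, n = 12), 0.55 (rho = 0.45) without Veh_963, and 0.85 without Los_964 and Ang2_922, the 2 farthest from the median of Pln. With the summed smooth muscle genes it was 0.51, and 0.36 without Veh_963. Other lists were as close, with the summed cartilage genes at 0.59 (0.47 without Veh_963) and the cardiac transcription factors at 0.52 (0.56). Without Los_964 and Ang2_922 the r was 0.80 for smooth muscle, 0.59 for cartilage and 0.42 for the transcription factors. Among the genes with the closest pattern to Pln were Kazald1 (r = 0.89), the adenylyl cyclase gene Adcy5 (r = 0.85) and the kinase gene Dmpk (r = 0.84). The Pln locus (20:36390886-36398875, plus strand) lies inside Cep85l on the other strand, so without knowledge of the strand setting reads of the 2 genes may not be told apart. Cep85l was at 0.443 to 1.79 FPKM, and its r with Pln was 0.25.

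Tnni3, the inhibitory troponin subunit of heart muscle, had 5.58, 2.90 and 3.07 FPKM in the AngII rats, 1.87, 10.4 and 11.8 in the TRV023 rats, 3.40, 3.75 and 7.43 in the losartan rats, and 7.11, 6.02 and 8.49 in the vehicle rats. TRV023 rats held both the lowest and the highest library, 6.33-fold apart. The AngII rats all lay below the vehicle rats. Tnni3 moved with genes of motile cilia, the beating projections of airway epithelial cells, though not with these alone. Its r with Rsph1, a protein of the cilium's radial spoke, was 0.83 (rho = 0.88, n = 12), and 0.91 without Trv_917 and Trv_930, the 2 farthest from the median of Tnni3. Its r with the tektin gene Tekt1 was 0.72, and 0.87 without those 2 rats.

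Rsph1 was at 11.9, 5.41 and 6.09 FPKM in the AngII rats, 11.5, 27.4 and 26.5 in the TRV023 rats, 7.64, 13.7 and 12.6 in the losartan rats, and 15.9, 14.5 and 26.7 in the vehicle rats. Ang2_931 and Ang2_933 were thus low, and Trv_918 and Trv_930 high, in Rsph1 and in Tnni3 alike. The summed level of 11 listed ciliated cell genes (12 gene models; Foxj1 was in no table) was 53.0, 27.3 and 30.7 FPKM in the AngII rats, 59.8, 118 and 105 in the TRV023 rats, 39.5, 68.0 and 59.5 in the losartan rats, and 79.1, 55.2 and 114 in the vehicle rats. Its r with Tnni3 was 0.77 (rho = 0.75), and 0.75 without Veh_963. For the summed cartilage genes the r with Tnni3 was 0.68 (rho = 0.79), and 0.76 without Veh_963. Without Trv_917 and Trv_930 the r was 0.89 for the ciliated cell genes and 0.58 for the cartilage genes. The r of Tnni3 with the log2 library total was 0.70, and the part of any of these in the Tnni3 level was not tested.

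Tnni3 (1:75665121-75668699) is on the minus strand in the deposited coordinates, whereas its promoter window on GRCr8 is on the plus strand. In the deposited coordinates Tnni3 starts 975 bases beyond the end of Dnaaf3 (1:75669674-75677024), a gene on the same strand. The Dnaaf3 protein is needed to assemble the dynein arms of motile cilia. Dnaaf3 had 4.20, 0.883 and 2.05 FPKM in the AngII rats, 4.04, 9.15 and 8.48 in the TRV023 rats, 2.999, 5.05 and 3.72 in the losartan rats, and 6.35, 4.29 and 9.21 in the vehicle rats. Its r with Tnni3 was 0.75 (rho = 0.78), and 0.72 without Veh_963. The ratio of Tnni3 to Dnaaf3 ran over a 7.11-fold range, and that of Tnni3 to Rsph1 over 3.61-fold. The closest patterns to Tnni3 among all genes were those of LOC691849 (r = 0.92), Wdr90 (r = 0.92) and Agbl5 (r = 0.90). The part of reads that run on from Dnaaf3 in the Tnni3 counts was not tested.

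Tnnt2, the troponin subunit that binds tropomyosin, had 5.18, 13.5 and 11.5 FPKM in the AngII rats, 4.82, 4.19 and 7.93 in the TRV023 rats, 6.73, 3.55 and 7.12 in the losartan rats, and 4.22, 13.2 and 5.16 in the vehicle rats. The high libraries were Ang2_931, Ang2_933 and Veh_924, and neither Ang2_922 nor Veh_963 was among them. Tnnt2 ran against its neighbour on the same strand, Lad1, which lies 8350 bases away (r = -0.84, rho = -0.85, n = 12). Its r was -0.33 with Myh11 and -0.63 with the ciliated cell genes (-0.62 without Veh_963). With the summed mesothelial cell genes it was -0.70 (-0.72 without Veh_963), and with the skeletal muscle genes 0.57 (0.74 without Veh_963). With the share of mitochondrial reads, which was 9.62% to 12.3% in the AngII rats, it was 0.64 (0.62 without Veh_963). The part of any of these in the Tnnt2 level was not tested.

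Myl4 was the lowest of the detected genes, at 0.671, 1.88 and 1.68 FPKM in the AngII rats, 2.97, 1.44 and 1.61 in the TRV023 rats, 1.97, 1.54 and 2.19 in the losartan rats, and 2.21, 2.48 and 1.82 in the vehicle rats. It rested on 10 to 38 reads per library. Its r was 0.01 with Myh11 and -0.07 with the ciliated cell genes, and the closest pattern was that of Setd6 (r = 0.89).

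The 5 detected genes did not keep to common proportions. Among their 10 pairs the Pearson r over the 12 libraries ran from -0.37 to 0.56 with a median of 0.07, and 4 pairs were below 0. The highest was that of Actc1 with Pln (0.56, and 0.43 without Veh_963). The ratio of Actc1 to Tnnt2 was 0.254 in Ang2_933 and 54.9 in Veh_963, which is a 216-fold range. The ratio of Tnni3 to Tnnt2 spanned 11.5-fold and that of Pln to Tnnt2 7.15-fold.

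Summed over the 10 genes, the level was 65.7, 38.5 and 25.2 FPKM in the AngII rats, 44.8, 35.7 and 39.0 in the TRV023 rats, 43.9, 43.3 and 69.4 in the losartan rats, and 40.0, 66.4 and 316 in the vehicle rats, a 12.5-fold range. Actc1 made up 11.6% (Ang2_933) to 89.6% (Veh_963) of that sum. Without Actc1 the range was 2.46-fold, and the group means were 26.8 ± 4.02 FPKM with AngII, 26.6 ± 5.06 with TRV023, 22.2 ± 9.17 with losartan and 29.4 ± 8.12 with vehicle (SD, n = 3 each). The 12.5-fold range rested on Veh_963, since the other 11 libraries ran from 25.2 to 69.4 FPKM, a 2.75-fold range, and without Actc1 the same 11 spanned 2.46-fold. Actc1 itself spanned 12.7-fold over those 11. As a share of all reads, the 10 genes took 445 RPM in Veh_963 (Wilson 95% interval 436 to 455), against 45.8 (42.9 to 48.8) and 74.9 (71.2 to 78.9) in Veh_923 and Veh_924.

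**Figure D3:**
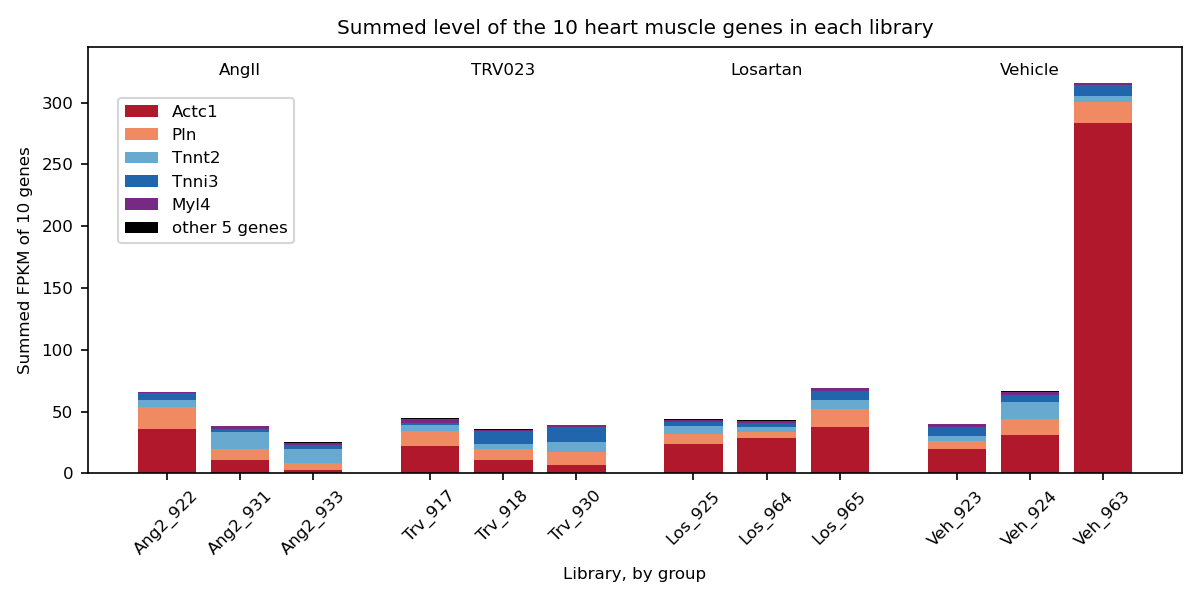
Summed FPKM of the 10 genes in each library (vertical axis from 0), stacked by gene and set out by group and animal number. The bar of Veh_963 reaches 316 FPKM, of which Actc1 is 283, and all other bars stay at or below 69.4 FPKM.

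AngII was compared with vehicle in edgeR on the reads of 6 libraries. Of the 10 genes 9 were listed and 7 passed the filter on low counts, and 0 were called at an adjusted p under 0.05, where 0.0133% of all 15059 genes tested were called. DESeq2 also called 0 of them, where it called 1.24% of all genes. In edgeR an unadjusted p under 0.05 was reached by 1 gene, Actc1, lower, where 5.39% of all genes were lower by that rule. The log2 fold change of Actc1 was -2.68 (SE 1.10, 95% interval -5.18 to -0.17, edgeR adjusted p = 0.404), and without Veh_963 it was -0.54 (SE 0.74, adjusted p = 0.819).

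Groups of AngII and vehicle rats did not overlap for 3 of the 7 genes. Tnni3 was lower in all 3 AngII rats, at a log2 fold change of -0.78 (SE 0.38, edgeR adjusted p = 0.459) and an exact permutation p of 0.1 on FPKM, the smallest that 3 against 3 can give. Ryr2 was also lower (-1.13, SE 0.55, adjusted p = 0.459), where 16.5% of all genes were lower without overlap. Mybpc3 was higher (1.49, SE 0.68, adjusted p = 0.431), where 4.96% of all genes were higher without overlap. Both rest on few reads, at most 35 per library. Each needed the group where it was high to pass the filter on low counts, vehicle for Ryr2 and AngII for Mybpc3. Their lack of overlap was thus partly selected and is no support for a difference. Tnnt2 had 0.57 (SE 0.51), Myl4 -0.47 (SE 0.56) and Pln -0.02 (SE 0.50). The median of the 7 fold changes was -0.47, and -0.54 without Veh_963, beside -0.02 for all genes tested.

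TRV023 against vehicle gave 0 calls among the 6 genes that passed the filter, where 0.00658% of 15193 genes were called. DESeq2 called 0, where it called 0.672% of all genes. Actc1 was again the 1 gene lower at an unadjusted p under 0.05, where 2.96% of all genes were lower. The log2 fold change of Actc1 was -3.08 (SE 1.004, 95% interval -5.39 to -0.77, edgeR adjusted p = 0.721), and without Veh_963 it was -0.94 (SE 0.46, adjusted p = 0.652). Ryr2 was lower without overlap (-1.03, SE 0.49, adjusted p = 0.928), where 5.23% of all genes were. Ryr2 again needed the vehicle group, where it was high, to pass the filter, so this is no support for a difference. The other 4 genes were within 1 SE of 0: Tnnt2 -0.41 (SE 0.47), Tnni3 0.15 (SE 0.57), Myl4 -0.11 (SE 0.44) and Pln -0.22 (SE 0.39). The median was -0.31, and -0.42 without Veh_963, beside 0.00 for all genes.

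Losartan against vehicle gave 0 calls among 6 genes, where 0.00% of 15156 genes were called. DESeq2 called 0, where it called 0.0327% of all genes, and 0 were at an unadjusted p under 0.05, where 1.65% of all genes were. Actc1 had a log2 fold change of -1.84 (SE 0.90, 95% interval -3.92 to 0.24). Without Veh_963 its sign turned, at 0.30 (SE 0.28), so the direction with losartan rested on that library. Tnni3 had -0.51 (SE 0.40), Pln -0.37 (SE 0.52), Tnnt2 -0.34 (SE 0.48), Myl4 -0.14 (SE 0.41) and Ryr2 -0.96 (SE 0.93), and for 0 of the 6 genes were the groups free of overlap, where 1.96% of all genes were higher and 3.62% lower in that way. The median was -0.44, and -0.31 without Veh_963, beside 0.01 for all genes. The 3 comparisons share the vehicle rats, so the lower Actc1 in each is not 3 separate results.

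**Figure D4:**
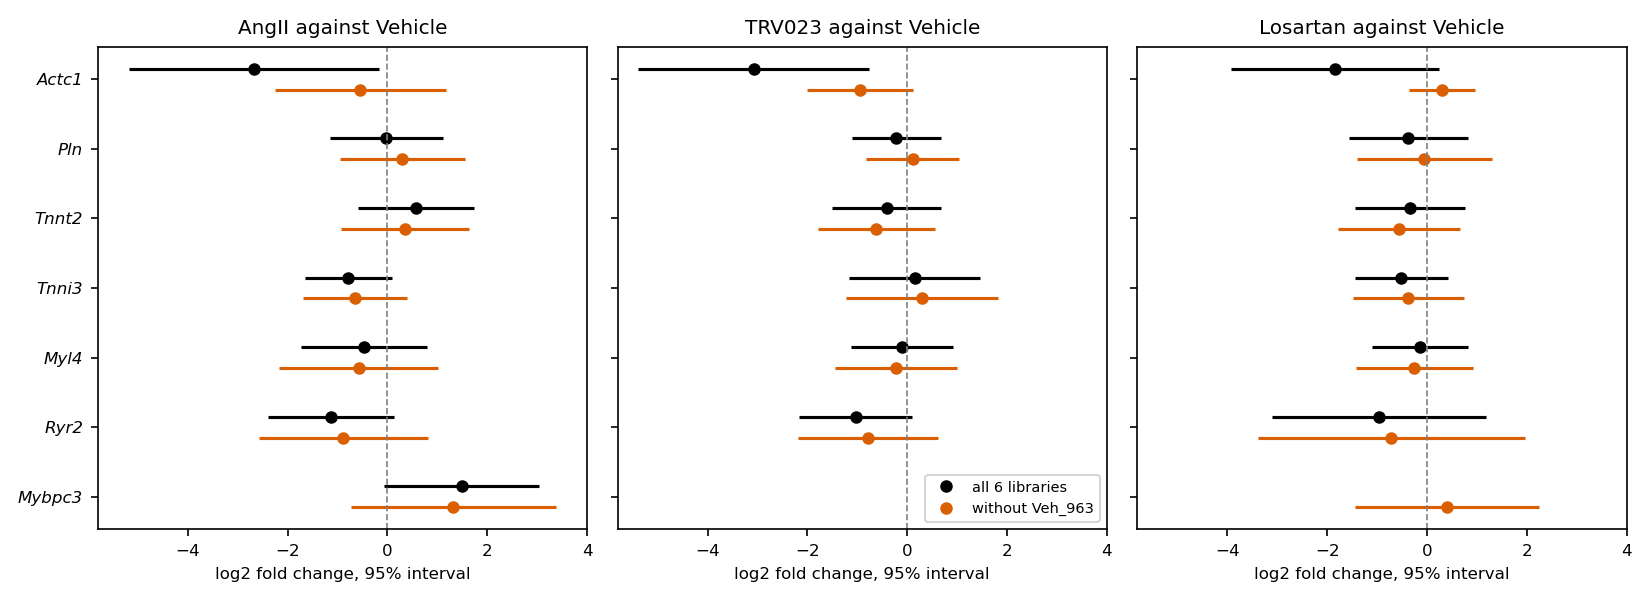
edgeR log2 fold changes (points) with 95% intervals (lines) of AngII, TRV023 and losartan against vehicle, for the genes that passed the filter in each fit, with all 6 libraries (black) and without Veh_963 (orange). Actc1 is at -2.68, -3.08 and -1.84 with all libraries and at -0.54, -0.94 and 0.30 without that rat.

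Between the drugs, in a fit of all 12 libraries and 15662 genes, 0 of 7 genes were called in each of the 3 comparisons, where 0.00% of all genes were called each time. edgeR had 0 of the 7 at an unadjusted p under 0.05, where the shares of all genes were 10.9% for TRV023 against AngII, 9.18% for AngII against losartan and 4.55% for TRV023 against losartan. DESeq2 called 0 of them, where its shares of all genes were 1.36%, 0.660% and 0.109% in the same order. Tnnt2 with TRV023 against AngII was at a log2 fold change of -0.99 (SE 0.49, edgeR adjusted p = 0.488). With AngII against losartan Tnnt2 was at 0.92 (SE 0.49, edgeR adjusted p = 0.572), and Mybpc3 was higher without overlap (0.93, SE 0.91), where 3.68% of all genes were. With TRV023 against losartan Actc1 was lower without overlap (-1.23, SE 0.94, edgeR adjusted p = 0.998), where 2.71% of all genes were. A test for any difference among the 4 groups gave Actc1 an edgeR adjusted p = 0.569, and an adjusted p = 0.813 without Veh_963, and called 0.0192% of all genes.

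Of further genes known from heart muscle, many were also low or not listed, and others were detected. Of 18 further sarcomere genes 14 were listed, and 8 of these were below 1 FPKM in all 12 libraries, among them the Z disc protein Actn2 (at most 0.363 FPKM) and titin, Ttn (at most 0.0219). Tcap, Csrp3, Lmod2 and Xirp1 were in no table. The highest were the small heat shock protein Hspb7 (mean 14.3 FPKM), Nebl (2.85), Tnnc1, the calcium-binding troponin subunit (2.61), and Ldb3 (2.51). The partner of Nppa, Nppb, reached 0.322 FPKM, and 5 of 7 ventricular genes were below 1 FPKM throughout, Myl2 and Myh7 included. The transcription factor Nkx2-5 was at most 0.0590 FPKM.

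Several other genes that heart muscle uses, many of them shared with other cells, were detected. The calcium pump Atp2a2 had a mean of 57.8 FPKM and Jph2, which tethers the calcium store to the surface membrane, 10.9, the gap junction genes Gja1 and Gja5 61.1 and 50.4, and the transcription factors Mef2c, Tbx3 and Tbx5 17.8, 14.2 and 9.51. Muscle forms of metabolic enzymes ran from 2.31 FPKM (Fabp3) to 9.51 (Cox6a2) among the 4 highest, with Ckmt2, Cox7a1 and Art1 in no table. Against vehicle, 0 of 8 sarcomere genes, 0 of 8 calcium genes and 0 of 8 channel and junction genes tested were called with AngII, and their medians were 0.04, -0.28 and -0.11 (0.37, -0.17 and -0.06 without Veh_963). At an unadjusted p under 0.05 1 of these genes, the exchanger gene Slc8a1, was lower, at -0.93 (SE 0.36, edgeR adjusted p = 0.387), where 5.39% of all genes were. With TRV023 these lists had 0 calls of 9, 8 and 9 genes, with 1 sarcomere gene, Mybphl, higher at an unadjusted p under 0.05, where 2.61% of all genes were. With losartan they had 0 of 8, 8 and 9, and none was at an unadjusted p under 0.05. None of these genes was called by DESeq2 with any drug.

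Lists of other cell types stand beside these values. Smooth muscle genes had a median log2 fold change of -0.72 with AngII, -0.62 with TRV023 and -0.33 with losartan, and all 3 medians turned sign without Veh_963, at 0.12, 0.13 and 0.40. With AngII edgeR called 0 of the 10 and DESeq2 1, Ckb, a creatine kinase, which was higher (0.46, SE 0.12, edgeR adjusted p = 0.321). Ckb was also the 1 gene of the list at an unadjusted p under 0.05, where 6.54% of all genes were higher. With TRV023 and losartan 0 of 10 were called by either tool and 0 were at an unadjusted p under 0.05. Ciliated cell genes had a median of -1.27 with AngII, where 0 of 11 were called by either tool and 7 were lower at an unadjusted p under 0.05, against 5.39% of all genes. Without Veh_963 their median was -0.90 and 2 of 12 were lower by that rule, where 575 of all 15329 genes tested were. With TRV023 their median was 0.23 (0.59 without Veh_963), and with losartan -0.52 (-0.21 without Veh_963). Skeletal muscle genes summed to 24.8 to 53.9 FPKM in all libraries, led by Acta1 (mean 12.3 FPKM), and cartilage genes to 3.76 to 13.0 FPKM, the highest being Veh_963. The part of these cell types in the fold changes of Actc1 and Tnni3 was not tested.

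The genes closest to the mean of the 8 heart muscle genes listed in all 3 tables (Nppa and Myl7 were not), among 14293 genes and over 12 libraries, were Khdrbs1 (r = 0.94), Smarca1 (r = 0.91), Tgfb3 (r = 0.90), Usp13 (r = 0.89), Siae (r = 0.89), Pds5b (r = 0.89), Mmp16 (r = 0.87) and Heph (r = 0.87), with 2 gene models that have no symbol of their own. None of them is named above as close to a single gene of the 10.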

How the data were processed

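Lung RNA of 12 MCT rats, 3 each given AngII, TRV023, losartan or PBS vehicle, had been sequenced by a company and aligned to the rat genome. The deposited values are whole read counts per gene, and FPKM that the authors made by dividing counts by gene length and library total. For the aligner, the counter, the genome build, the annotation and strandedness, nothing was found: not given in the sources used here. These tables hold 17836, 18569 and 18367 genes and list only genes with a read in their drug group, and vehicle columns were identical in all 3 tables. Each also holds the authors' fold changes and p-values against vehicle and a scaled signal, which were not used.

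Counts of each drug and vehicle were fitted in edgeR 4.0.16 under R 4.3.3, with filterByExpr, TMM, the quasi-likelihood test and Benjamini-Hochberg adjustment over all genes tested, and the drugs with each other in a fit of 12 libraries. Genes were called at an adjusted p under 0.05. p-values measure the spread between rats. FPKM were compared with exact two-sided permutation tests, which cannot go below 0.1. Correlations were of log2(CPM + 1). In simulated libraries edgeR recovered 68%, 80% and 72% of 4-fold changes (AngII, TRV023, losartan). In the same order it recovered 36.7%, 22.9% and 26% of 2-fold changes, and 4.17%, 2.04% and 0% of 1.5-fold changes. The changed genes were drawn at random from all genes fitted, not from the heart muscle genes. Intervals of shares are Wilson and cover counting error only, and SEs were taken from the F statistic.

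The 10 genes and 14 further lists (sarcomere, calcium handling, channels and junctions, energy metabolism, transcription factors, secreted factors, ventricle, skeletal and smooth muscle, cartilage, ciliated, mesothelial, nerve and fat cells) were chosen with earlier results of these data known. Named are the 10 genes, up to 4 listed genes per list with the highest mean FPKM, absent markers, and the 10 genes closest to the mean of the 8 listed in all tables, leaving out 2 without a symbol. Other genes were chosen after their values were seen, and 1 marker gene is not reported here. The alternatives were DESeq2 1.42.0, limma 3.58.1 on log2(FPKM + 1) or log2(FPKM + 0.1), RLE, library totals, mitochondrial genes left out, no filter, at least 10 counts in every library, all libraries in a fit, the animal number series as a covariate, and each library left out. The number series sets Veh_963, Los_964 and Los_965 apart from the other animals, and it holds no AngII or TRV023 rat. Chosen after seeing the data were the test among 4 groups, the lists and the range of sums without Veh_963, the patterns closest to single genes and the nearest genes. Promoters were RefSeq windows of GRCr8. Figures used matplotlib 3.10.9 in Python 3.11.15.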

Additional observations from a re-analysis of the deposited data

How the results depend on the processing

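Over 78 alternatives for the 6 comparisons, 0 of the heart muscle genes were called, and over 292 alternatives for 19 of their fold changes the lowest adjusted p was 0.174 (limma, DESeq2 or edgeR). Of those 292, 17 turned the sign. With the animal number series as a covariate Pln was at 0.26 with AngII and 0.063 with TRV023, and Actc1, without a turn, at -1.17 and -1.57, and with limma Tnni3 with TRV023 was at -0.12 (FPKM + 1) and -0.21 (FPKM + 0.1). Leaving out 1 library, Pln ranged from -0.52 to 0.30 with AngII and -0.52 to 0.11 with TRV023, Tnnt2 from -0.74 to 0.28 with TRV023 and -0.63 to 0.34 with losartan, Tnni3 from -0.25 to 0.61 and Myl4 from -0.52 to 0.10 with TRV023, and Actc1 from -2.34 to 0.30 with losartan.

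The log2 ratio of the mean summed level to vehicle was -1.71 with AngII, -1.82 with TRV023 and -1.43 with losartan. Without Actc1 it was -0.14 with AngII, -0.14 with TRV023 and -0.41 with losartan, and the median of the single genes' log2 ratios of mean FPKM with TRV023 was -0.32. Leaving out 1 library it ranged from -2.15 to -0.30, -2.26 to -0.42 and -1.87 to -0.027, the value nearest 0 in each being without Veh_963. The median fold change with AngII against losartan was -0.16, 0.43 with the number series as a covariate, and -0.37 to 0.22 leaving out 1 library, and with losartan against vehicle -0.95 to -0.26. Of the losartan rats only Los_925 shares its number series with the AngII rats.

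All genes called with AngII were 2 in edgeR and 204 in DESeq2 (74.5% higher), 1 with limma at either pseudocount, with library totals, without mitochondrial genes or with 12 libraries in the fit, 0 with the covariate, and 0 to 3 leaving out 1 library. With TRV023 they were 1, 110 in DESeq2 (38.2% higher), 2 with limma (FPKM + 0.1), 0 with 12 libraries, and 0 to 3. With losartan they were 0, 6 in DESeq2, and 0 to 1. Between drugs DESeq2 called 217 (TRV023 against AngII), 103 (AngII against losartan) and 16 (TRV023 against losartan), edgeR 1 with the covariate in the last 2 and 1 with library totals in the last, and 0 to 1 leaving out 1 library for AngII against losartan. The test among 4 groups called 3, and 1 without Veh_963. Library totals moved the median of all genes to -0.16 with AngII and limma to -0.13 and -0.14, and library totals moved it to 0.15 for TRV023 against AngII. The causes were not tested. No paired analysis was possible because the animal numbers are not shared between groups. With 3 rats per group, 10 to 38 reads of Myl4 and at most 35 of the genes near 0, small differences were not detectable.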

Other observations

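Lists not set out above also had 0 calls in edgeR against vehicle. Adm, the vasodilator peptide adrenomedullin and the highest of the secreted factors (mean 26.8 FPKM), had a log2 fold change of 0.85 with TRV023 (SE 0.30, edgeR adjusted p = 0.789), with all 3 TRV023 rats above all 3 vehicle rats, where 4.99% of all genes were. Fabp4 had 0.82 with AngII (SE 0.21, adjusted p = 0.317), and Cfd had 1.11 with AngII (SE 0.33, adjusted p = 0.347) and 0.99 with TRV023 (SE 0.26, adjusted p = 0.595). Of the fat cell list DESeq2 called Fabp4 and Cfd with AngII, where it called 1.24% of all genes. It called Cfd with TRV023, where it called 0.672% of all genes. Other genes of that list did not go the same way. Cidec was at -0.50 with AngII (SE 0.64) and -1.18 with TRV023 (SE 0.63), and Adipoq had a mean of 0.313 FPKM.

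The median log2 fold change with AngII was 0.33 for energy metabolism (4 genes tested), -0.24 for transcription factors (5), -0.42 for ventricle (2), 0.45 for skeletal muscle (10), 0.03 for cartilage (5), -0.38 for mesothelial (7) and 0.31 for nerve (6) genes, beside -0.02 for all genes, and without Veh_963 that of cartilage was 0.59. Krt7 (mean 279.5 FPKM), Prx (69.6 FPKM) and Col9a2 (1.94 FPKM) were the highest genes of the mesothelial, nerve and cartilage lists.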
